A study of Canis lupus familiaris with 11 samples.

Results

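The genotype by compression interaction is the difference between the compression response of cells without lamin A and that of cells with it. It was computed for each gene on the log2 scale as compressed minus control in LMNA knockout (KO) cells, minus compressed minus control in wild-type (WT) cells. All 11 libraries entered it, and 13560 of the 26178 genes in the deposited table passed the filter on low counts and were tested. A positive value means that RNA stood relatively higher after compression in KO cells than in WT cells, and a negative value that it stood relatively lower. Genes whose responses pointed in opposite directions were set apart from genes whose response was damped in KO cells. The split used size thresholds, so some damped genes also had responses of different sign.

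The cells were MDCKII, an established dog kidney epithelial line, and an LMNA KO line derived from it. Controls of both genotypes (3 WT and 2 KO libraries) were harvested after 3 to 4 d of growth. Compressed cells (3 WT and 3 KO libraries) were grown likewise, compressed laterally and given 2 h of recovery before harvest. The sources used here do not give how the compression was applied or whether the KO line is 1 clone, and they name no sham handling of the controls, so compression, handling and recovery cannot be told apart. The series' design text mentions only WT cells, at other times and after reseeding, and names neither compression nor KO cells, so the groups rest on the sample labels alone. Nothing in the labels ties replicates to separate cultures, and p-values therefore measure only the spread between these libraries, which may be technical. In bulk RNA, fewer cells of a type and less RNA per cell cannot be told apart.

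Lamins A and C are intermediate filament proteins made from the same gene. They form a meshwork under the inner nuclear membrane, stiffen the nucleus, tie chromatin to its edge and link it, through the LINC complex of SUN and nesprin proteins, to the cytoskeleton. Cells in an epithelial sheet that are pushed together are known to answer through junctions, mechanosensitive channels, ERK signalling and the coactivator YAP, and the nucleus is one of the parts of the cell that takes up load.

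LMNA RNA, in CPM (counts of a gene divided by the scaled library size and set to a common total), lay between 679 and 1208 in WT controls, between 751 and 841 in compressed WT libraries, and between 25.5 and 51.8 in the KO libraries. Its own interaction was -0.15 ± 0.33 (SE), and the sign was positive without WT control replicate 1, KO control replicate 2 or KO compressed replicate 2. Totals ran from 10420214 to 17999623 counts per library. In its group of 3, the library with the largest mean chi-square per gene against the others was replicate 1 among WT controls (62.6), replicate 2 among KO compressed (63.4) and replicate 3 among WT compressed (19.6). For the cell type markers, CPM used the unscaled library totals. Kidney epithelial markers summed to between 5025 and 8669 CPM in every library, and 0 of 12 were at 0 in all libraries together. KRT8 had the highest mean of them, 2171 CPM, and CDH16 was at 0 in WT compressed replicate 3. Of the fibroblast and smooth muscle markers 10 of 12 were under 1 CPM, and their sum lay between 22.9 and 31.99 CPM, MYH11 having a mean of 21.95 CPM. The sums reached at most 4.64 CPM for endothelium and 5.98 CPM for immune cells.

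No single gene passed the test of the interaction. After Benjamini-Hochberg adjustment, edgeR's quasi-likelihood test called 0 of 13560 genes (0%), the smallest adjusted p being 0.939, and DESeq2 and limma-voom also called 0. An unadjusted p under 0.05 was reached by 650 genes (4.79%), beside 678 if p-values were spread evenly, with 343 relatively higher in KO cells (2.53%) and 307 relatively lower (2.26%). The median SE of an interaction was 0.37 against 0.25 for the WT response and 0.28 for the KO response, with 7 residual degrees of freedom. An interaction of at least 1 in size was seen in 1182 genes, none of which passed. The values below are therefore point estimates with their SE. Each gene given below with an interaction and its SE had an unadjusted p under 0.05 for it, and none passed after adjustment over all genes with all libraries.

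The compression response was smaller in KO cells and mostly pointed the same way. Over all genes its median size was 0.41 in WT cells and 0.24 in KO cells, and its SD was 0.70 and 0.52. The WT response alone called 848 genes (6.25%) and the KO response 0 (0%), with 4307 (31.8%) and 828 (6.11%) at an unadjusted p under 0.05. These calls lay near the threshold: 0 or 1 gene was called in WT cells without replicate 2 or 3 of the WT controls, any WT compressed library or either KO control, and 912 to 3053 without each of the other libraries. DESeq2 called 2494 genes in WT and 1 in KO cells, limma-voom 873 and 0, and limma on log2(FPKM + 0.1) or the fit with a replicate block 0 in both. The responses share no library, and across genes they correlated with a Pearson r of 0.41 and a Spearman rho of 0.53, given as a description.

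Genes chosen in 1 genotype were read in the other. Of the 848 genes called in WT cells, 775 (91.4%) had the same sign in KO cells, against 72.8% of all genes tested. The 522 genes that rose in WT cells had a median response of 0.83 there and 0.29 in KO cells, and the 326 that fell had medians of -1.05 and -0.36. In 72.9% of the 848 the KO response was at most 0.5 times the WT response in size. Among all genes tested, the 2111 with a WT response between -1 and -0.5 had medians of -0.68 in WT and -0.30 in KO cells. The 1891 with one between 0.5 and 1 had medians of 0.66 and 0.25. The sign of the interactions in a gene list can therefore follow the direction of its WT response. Choosing genes by their value in 1 genotype enlarges that value, so the reverse was read as well. The 828 genes with an unadjusted p under 0.05 in KO cells had a median size of 0.71 there and 0.61 along the same direction in WT cells, 90.2% had the same sign, and in 23.3% the WT response was at most 0.5 times the KO response.

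Each gene was classed by the sizes of its responses. Opposite genes had responses of different sign and at least 0.5 in size each. Damped genes had a WT response of at least 1 and a KO response at most 0.5 times as large, and amplified genes were the mirror of this. Both classes left out opposite genes but set no condition on sign. They therefore also hold genes of different sign whose smaller response was under 0.5. Among these damped genes were LHX1 (1.32 in WT and -0.48 in KO cells) and C1orf53 (-1.04 and 0.46). Parallel genes had responses of the same sign and at least 0.5 each outside these classes. There were 314 opposite genes (2.32%), 845 damped (6.23%), 252 amplified (1.86%) and 1276 parallel (9.41%), and 10873 (80.2%) were in no class. These counts describe point estimates, with no test. At low counts the SE of a single response can exceed the opposite threshold, and 187 of the 314 opposite genes were under 2 CPM in their highest group. At the threshold, NOTCH1 was just inside the opposite class with -1.66 in WT and 0.50 in KO cells, and PRKCH just outside with -0.49 and 0.93. GAS2L1 was just inside the damped class with -1.01 and -0.51, and FXR2 just outside with -1.03 and -0.52.

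**Figure D1:**
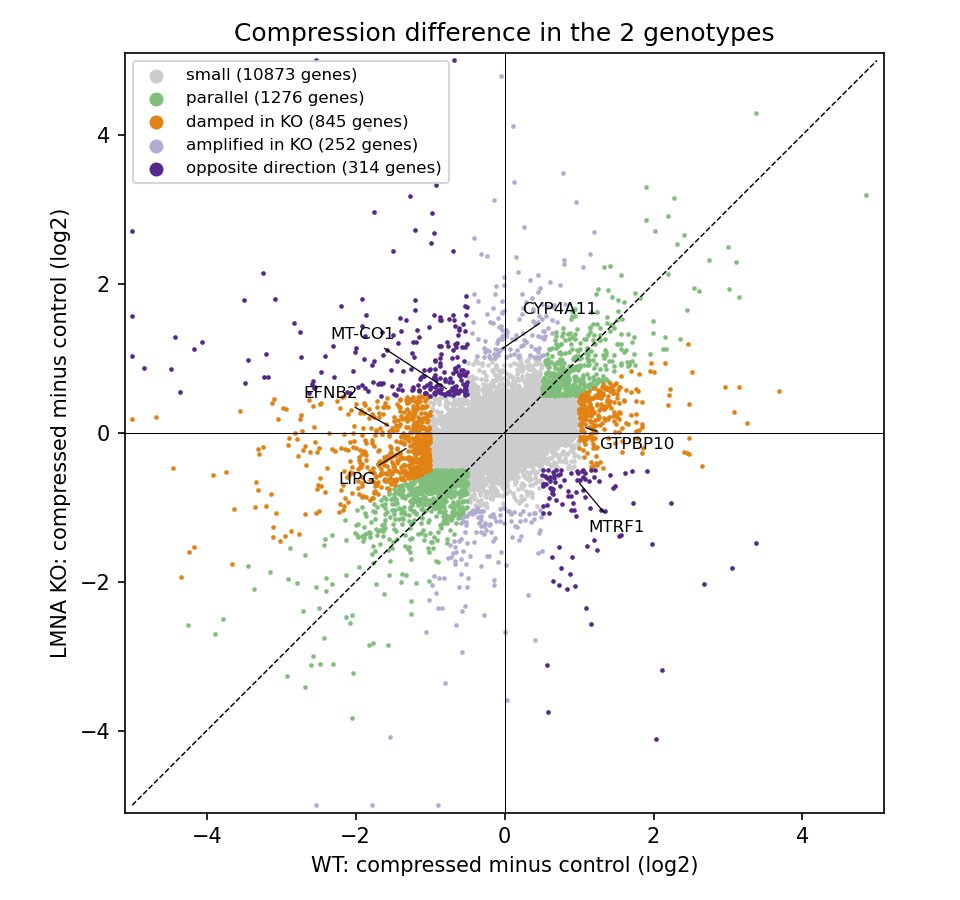
Each point is 1 of 13560 genes, with the compressed minus control difference on the log2 scale in WT cells on the horizontal axis and in LMNA KO cells on the vertical axis, values beyond 5 in size being drawn at 5. Colours mark the classes, the dashed line marks equal responses, and the cloud lies flatter than that line, with 845 damped genes against 252 amplified.

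The groups can also be read by overlap, without a size threshold. Compressed and control libraries did not overlap in 5700 genes in WT cells (42.0%) and in 3739 in KO cells (27.6%). With 2 KO controls against 3 WT controls, full separation arises more easily by chance in KO cells, so these shares are not directly comparable. In 76 genes (0.560%) neither genotype's compressed and control libraries overlapped and the directions were opposite, 33 higher in WT and lower in KO cells and 43 the reverse. In 1650 genes (12.2%) neither overlapped and the direction was the same. How many genes would separate by chance in both genotypes was not tested, so a lack of overlap does not by itself show a response. With an unadjusted p under 0.05 in each genotype, 9 genes pointed in opposite directions and 494 in the same direction.

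The likeness of the genotypes was greatest in 1 library, KO compressed replicate 2. Against the mean of the KO controls, its differences correlated with the WT response across genes with an r of 0.59, against 0.19 for KO compressed replicate 1 and 0.085 for replicate 3. Of the 848 genes called in WT cells, 97.9% had the WT sign in replicate 2, 73.8% in replicate 1 and 70.2% in replicate 3, beside 79.9%, 58.2% and 56.9% of all genes. The difference was at least 0.5 times the WT response in 74.4%, 23.3% and 5.31% of them. Without replicate 2, 2276 genes (16.8%) had an unadjusted p under 0.05 in the interaction (8.36% higher and 8.43% lower in KO cells), the responses correlated at 0.17, the smallest adjusted p was 0.102 and edgeR called 0 genes. Leaving out any other library gave between 236 genes (without KO control replicate 1) and 814 (without WT control replicate 1), and the latter fit called 1 gene, a locus listed without a symbol.

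A further fit, chosen after seeing the data, set aside WT control replicate 1 and KO compressed replicate 2 together. It called 366 genes (2.70%) by edgeR at an adjusted p under 0.05, 87 relatively higher in KO cells (0.642%) and 279 relatively lower (2.06%). Classed by the values of that fit, 44 were opposite, 116 damped, 2 amplified, 0 parallel and 204 in no class, and 278 had responses of different sign. With all libraries 140 of them had an unadjusted p under 0.05, the fits sharing most of their libraries. With WT compressed replicate 3 set aside as well, 360 were called (2.65%), 322 of them shared with the 366. The libraries set aside were those that differed most from their group, so these fits also have a smaller spread by construction, and whether the libraries or the genotype set the calls was not tested.

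**Figure D2:**
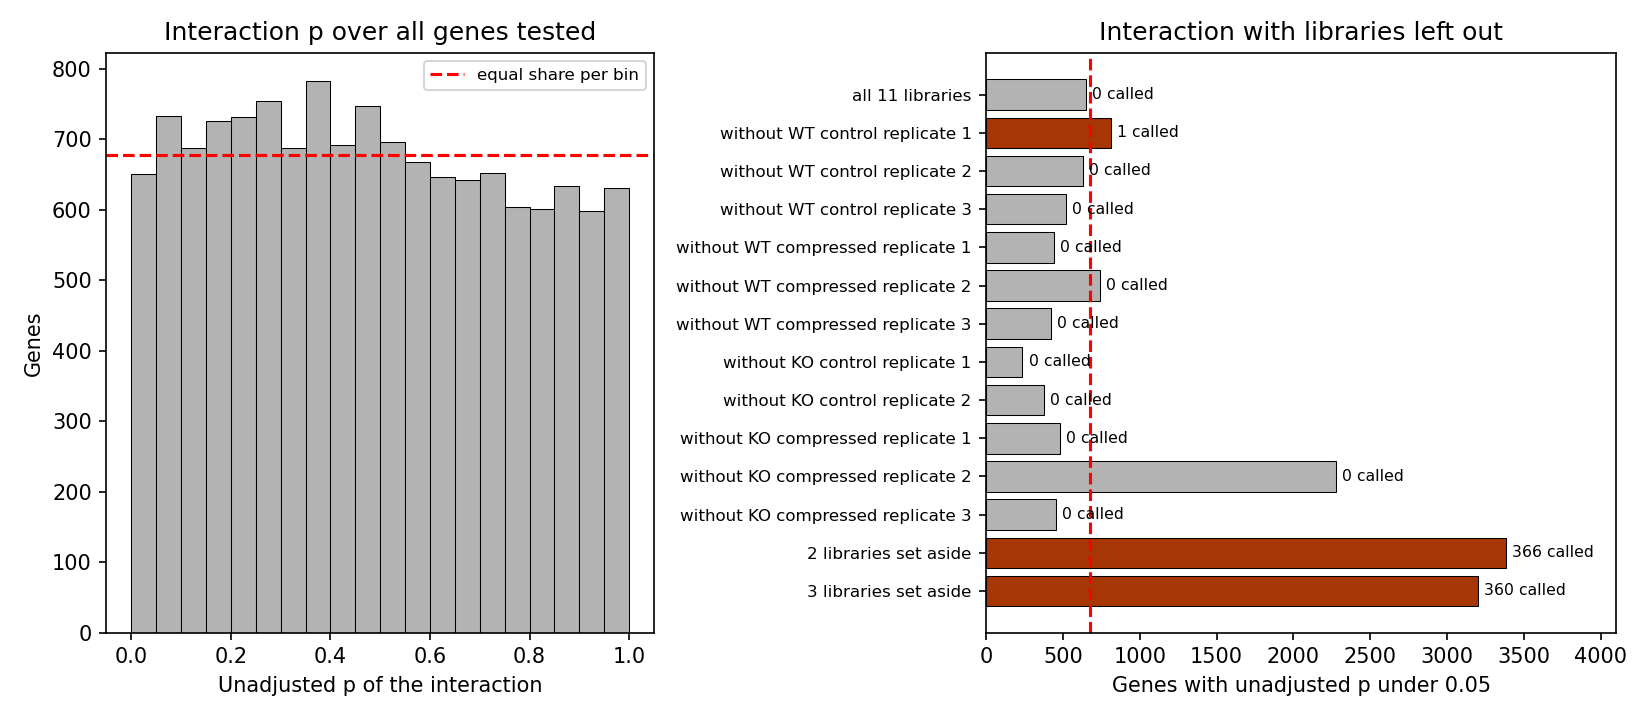
The left panel gives the number of genes per bin of unadjusted interaction p with all 11 libraries, and the dashed line marks 678 genes, an equal share per bin. The right panel gives the genes with an unadjusted p under 0.05 when libraries are left out, with the number called at an adjusted p under 0.05 beside each bar; 650 with all libraries becomes 2276 without KO compressed replicate 2 and 3381 with 2 libraries set aside.

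Genes encoded in the mitochondrial genome mostly pointed in opposite directions in the genotypes. They code for core subunits of the respiratory chain and of ATP synthase, and are transcribed as long precursors, so they are not independent of each other. All 13 protein-coding genes tested had a positive interaction, and 12 of them were lower in compressed than in control WT cells and higher in compressed than in control KO cells, 4 of them past the size threshold of the opposite class. Their medians were -0.32 in WT cells, 0.56 in KO cells and 0.98 for the interaction, against -0.02, -0.00 and 0.01 over all genes tested. An unadjusted p under 0.05 for a positive interaction was reached by 11 of 13, beside 2.53% of all genes. Compressed libraries were all above control libraries in 11 of 13 in KO cells, beside 13.5% of all genes, and all below them in 7 of 13 in WT cells, beside 20.8%.

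MT-CO1, subunit I of cytochrome c oxidase (mitochondrial genome, 5349 to 6893, CanFam3.1), stood at 11008, 7356 and 7135 CPM in WT controls and at 4639, 4340 and 6332 CPM in compressed WT cells. In KO cells it stood at 7449 and 6678 CPM in controls and at 9092, 8458 and 13713 CPM after compression. The highest compressed WT library was below the lowest WT control, and the lowest compressed KO library was above the highest KO control. The responses were -0.74 ± 0.21 and 0.56 ± 0.24, and the interaction was 1.30 ± 0.32. MT-ND5, a subunit of complex I (11778 to 13598), stood at 1425, 1057 and 1024 CPM in WT controls, at 706, 694 and 825 CPM in compressed WT cells, at 992 and 867 CPM in KO controls and at 1081, 1211 and 2008 CPM in compressed KO cells. It too was lower in every compressed WT library and higher in every compressed KO library, with an interaction of 1.28 ± 0.32. MT-ND1, another complex I subunit, had responses of -0.59 ± 0.21 and 0.57 ± 0.23.

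The mitochondrial share of all counts moved with these genes. It was 3.84, 2.71 and 2.61% in WT controls, 2.10, 2.07 and 2.22% in compressed WT cells, 2.65 and 2.61% in KO controls and 3.30, 2.90 and 4.74% in compressed KO cells. The share was highest in KO compressed replicate 3 and, among WT libraries, in control replicate 1. All 13 genes kept a positive interaction without each library in turn, the median then lying between 0.79 and 1.09 and the number at an unadjusted p under 0.05 between 8 and 11. With both WT control replicate 1 and KO compressed replicate 2 set aside, edgeR called 5 of the 13 higher, beside 0.642% of all genes. The libraries were made from RNA captured by its poly(A) tail, and whether the share reflects the number of mitochondrial transcripts or the capture of RNA was not tested. The 53 nuclear-encoded respiratory chain genes had medians of 0.13 in both genotypes and an interaction median of 0.05. At an unadjusted p under 0.05, 1 of 53 was higher and 0 lower, beside 2.53% and 2.26% of all genes.

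The opposite class held 220 genes that were lower in compressed WT cells and higher in compressed KO cells, 4 of them mitochondrially encoded. UBE2QL1, a member of the E2 ubiquitin-conjugating family, stood at 20.5, 3.42 and 5.37 CPM in WT controls and at 2.46, 3.13 and 1.61 CPM in compressed WT cells. In KO cells it stood at 2.70 and 3.69 CPM in controls and at 9.26, 5.09 and 6.68 CPM after compression. Neither genotype's groups overlapped, and WT control replicate 1 was the highest library. The interaction was 3.13 ± 0.82, and 2.17 with the 2 libraries set aside.

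NFKBIA, the inhibitor that holds NF-kB in the cytoplasm, stood at 49.6, 11.4 and 17.3 CPM in WT controls, at 9.23, 9.65 and 10.2 CPM in compressed WT cells, at 16.2 and 14.8 CPM in KO controls and at 27.1, 16.5 and 26.4 CPM in compressed KO cells. Neither genotype's groups overlapped, and the interaction was 2.02 ± 0.62. Without WT control replicate 1 the interaction was 1.16, and with the 2 libraries set aside the WT response was -0.57 in place of -1.43. SGK1, a kinase that regulates ion transport, had responses of -0.77 ± 0.34 and 0.54 ± 0.37, with 1 WT control at 1311 CPM against 359 and 551 CPM in the others, and its WT response was -0.06 with the 2 libraries set aside. NOTCH1, the receptor of Notch signalling, had an interaction of 2.16 ± 0.64. Its WT controls stood at 25.8, 10.3 and 10.5 CPM and its KO controls at 2.48 and 4.35 CPM. Compressed KO libraries stood at 5.45, 2.37 and 6.56 CPM, so the KO groups overlapped for NOTCH1, with replicate 2 below both controls. SLC6A12, a betaine transporter that cells use in osmotic stress, stood at 91.5 CPM in WT control replicate 1 and at 6.42 CPM or less in every other library, and was at 0 in 1 WT and 1 KO compressed library, too few reads for a fold change.

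The reverse pattern, higher in compressed WT and lower in compressed KO cells, was found in 94 genes. MTRF1, a mitochondrial translation release factor (chromosome 22, 9326928 to 9376491), had the smallest p of all genes. It stood at 6.77, 6.24 and 5.74 CPM in WT controls, at 12.4, 9.99 and 14.3 CPM in compressed WT cells, at 9.20 and 8.26 CPM in KO controls and at 4.85, 5.17 and 6.81 CPM in compressed KO cells. Neither genotype's groups overlapped. The responses were 0.97 ± 0.24 and -0.63 ± 0.27, and the interaction was -1.60 ± 0.36 (95% interval -2.38 to -0.82, edgeR adjusted p = 0.939). With the 2 libraries set aside it was -1.60 again.

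Other members of the reverse pattern were less abundant or overlapped in KO cells. ZC3HAV1L, a relative of an antiviral zinc finger protein, stood at 1.26, 3.02 and 2.20 CPM in WT controls and at 3.54, 4.83 and 5.25 CPM in compressed WT cells, with an interaction of -1.66 ± 0.61. BTK, a tyrosine kinase best known from B cells, had responses of 0.61 ± 0.31 and -0.59 ± 0.36 at levels between 1.79 and 9.23 CPM. C2orf63 had an interaction of -2.19 ± 0.82, and OSBPL10, an oxysterol-binding protein, was at 0 in 2 of the compressed KO libraries, at 0.149 CPM in the third and at no more than 0.551 CPM in the KO controls, too few reads for a fold change. F3, tissue factor and a YAP and TEAD target, was just under the size threshold at 0.43 ± 0.18 and -0.40 ± 0.20, and its groups did not overlap in either genotype.

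**Figure D3:**
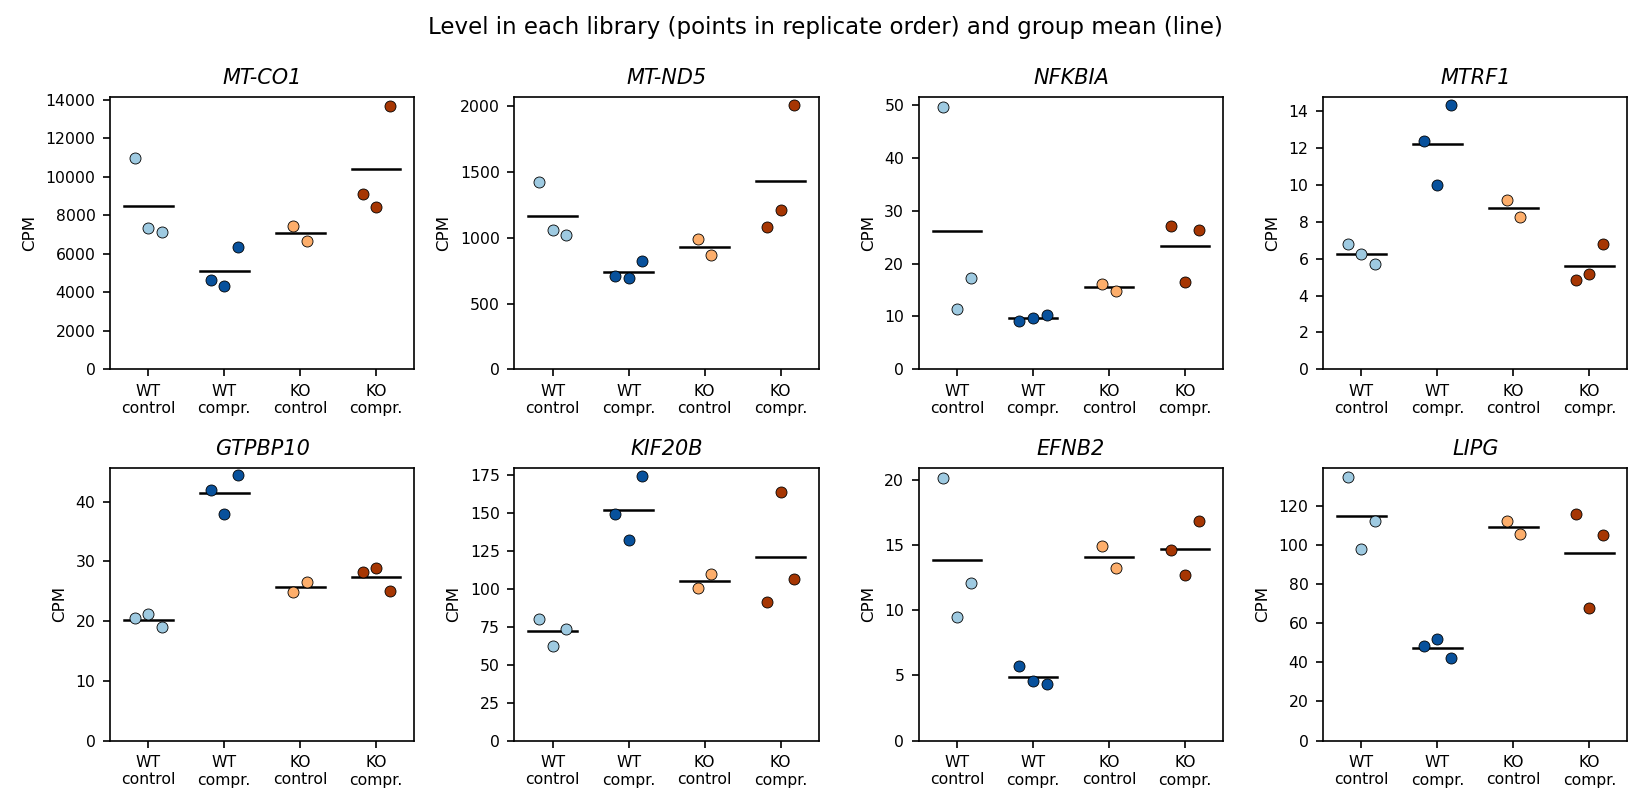
Level in CPM of 8 genes in each of the 11 libraries, with points in replicate order and a line at the group mean. MT-CO1, MT-ND5, NFKBIA and MTRF1 pointed in opposite directions with no overlap in either genotype, and GTPBP10, KIF20B, EFNB2 and LIPG differed between the WT groups and overlapped between the KO groups.

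Damped genes numbered 239 that were higher and 606 that were lower in compressed WT cells. Their median responses were 1.24 in WT against 0.28 in KO cells for the first and -1.31 against -0.26 for the second. These medians use the values that chose the genes and support nothing. GTPBP10, a GTP-binding protein of the mitochondrial ribosome's assembly (chromosome 14, 16248098 to 16277925), stood at 20.6, 21.1 and 19.1 CPM in WT controls and at 41.9, 37.9 and 44.4 CPM in compressed WT cells, against 24.95 and 26.5 CPM in KO controls and 28.1, 28.9 and 25.1 CPM in compressed KO cells. It rose in WT cells by 1.03 ± 0.16 with no overlap, and differed by 0.09 ± 0.18 in KO cells, where the groups overlapped. The interaction was -0.94 ± 0.25.

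LHX1, a transcription factor of kidney development, stood at 2.60, 3.22 and 1.95 CPM in WT controls, at 6.38, 6.18 and 6.86 CPM in compressed WT cells, at 2.04 and 2.55 CPM in KO controls and at 1.94, 1.93 and 1.11 CPM in compressed KO cells. Only the compressed WT libraries exceeded 3.22 CPM, and the compressed KO libraries were all below the KO controls. In KIAA0825 and PARPBP, a regulator of homologous recombination, KO compressed replicate 2 was higher than both KO controls while replicates 1 and 3 were not, and the interactions were -1.17 ± 0.34 and -1.12 ± 0.34.

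LIPG, endothelial lipase (chromosome 7, 79201458 to 79221361), stood at 135, 97.8 and 113 CPM in WT controls and fell to 48.3, 52.2 and 42.2 CPM in compressed WT cells. In KO cells it stood at 112 and 106 CPM in controls and at 116, 67.8 and 105 CPM after compression. The KO library at 67.8 CPM was replicate 2, and the others lay at the level of the controls. The responses were -1.27 ± 0.20 and -0.18 ± 0.22, the interaction was 1.09 ± 0.30, and with the 2 libraries set aside it was 1.16 with an edgeR adjusted p of 0.0214.

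EFNB2, a membrane ligand of Eph receptors (chromosome 22, 55567672 to 55609709), stood at 20.2, 9.46 and 12.1 CPM in WT controls, at 5.69, 4.57 and 4.34 CPM in compressed WT cells, at 14.9 and 13.3 CPM in KO controls and at 14.6, 12.7 and 16.8 CPM in compressed KO cells. Every KO library was thus above every compressed WT library. NR4A1, an orphan nuclear receptor and immediate early gene, fell from 6.77, 3.82 and 8.31 CPM to 0.538, 1.19 and 0.807 CPM in WT cells, and stood at 4.08 and 4.07 CPM in KO controls and 2.24, 2.02 and 7.30 CPM in compressed KO cells. KO compressed replicate 3 alone was above the KO controls there, and the interaction was 2.83 ± 0.77. C1orf53 had responses of -1.04 ± 0.29 and 0.46 ± 0.32. GPRC5B, an orphan receptor, had an interaction of 2.14 ± 0.61, and the KO compressed libraries ranged from 12.5 CPM in replicate 2 to 39.5 CPM in replicate 3.

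By point estimates, KO controls lay away from the WT control level in part of the opposite and damped genes. KO control cells were nearer to compressed than to control WT cells in 64.9% of opposite genes that were higher in compressed WT cells and in 70.0% of those that were lower, in 55.6% of damped genes that were higher and in 30.9% of damped genes that were lower. The WT control libraries enter both the class and this measure, so it is a description. The same share over all genes was not computed.

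Mitosis genes, which build the spindle and kinetochores, had mostly negative interactions. Of 41 members tested 37 had a negative value, with medians of 0.51 in WT cells, 0.01 in KO cells and -0.37 for the interaction, and 7 had an unadjusted p under 0.05, all relatively lower in KO cells, beside 2.26% of all genes. KIF20B, a kinesin of cytokinesis (chromosome 28, 4589681 to 4670399), stood at 80.0, 62.2 and 73.8 CPM in WT controls, at 149, 132 and 174 CPM in compressed WT cells, at 101 and 110 CPM in KO controls and at 91.5, 164 and 106 CPM in compressed KO cells. The library at 164 CPM was KO compressed replicate 2, which lay within the range of compressed WT cells. HMMR, a spindle-assembly factor, showed the same order, with 27.1, 86.5 and 50.3 CPM in compressed KO cells against 58.4 and 62.2 CPM in KO controls. The interactions were -0.88 ± 0.31 for KIF20B, -1.22 ± 0.44 for HMMR and -0.86 ± 0.28 for KIF15, a spindle kinesin.

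The KO values of this list differed between libraries. The median difference from KO controls was -0.01 in replicate 1, 0.40 in replicate 2 and -0.19 in replicate 3, while the compressed WT libraries lay between 0.44 and 0.54. Without replicate 2 the KO median was -0.12 and 26 of 41 members had an unadjusted p under 0.05, all lower, beside 8.43% of all genes. With the 2 libraries set aside, edgeR called 12 of 41 lower and 0 higher, beside 2.06% of all genes lower. CENPE, a kinetochore motor, and ASPM, a spindle pole protein, were then in the opposite class at 1.29 and -0.58, and at 0.94 and -0.58, and were chosen for naming after their values were seen. The negative median held without each library in turn, between -0.65 and -0.30. DNA replication genes had medians of 0.11, 0.03 and -0.01 over 37 members. At an unadjusted p under 0.05, 3 were lower and 0 higher, beside 2.26% and 2.53% of all genes.

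Primary cilium genes had a median of 0.52 in WT and 0.26 in KO cells, and 27 of 38 had a negative interaction, beside 6603 of all 13560 genes. All tested genes with a WT response between 0.5 and 1 had medians of 0.66 and 0.25. At an unadjusted p under 0.05, 3 of 38 were lower, beside 2.26% of all genes, and 1 without WT control replicate 3 or WT compressed replicate 1 but 10 without KO compressed replicate 2, beside 8.43%. IFT88, which carries cargo along the cilium, stood at 4.18, 6.37 and 6.53 CPM in WT controls, at 12.2, 9.15 and 13.3 CPM in compressed WT cells, at 7.55 and 8.42 CPM in KO controls and at 7.24, 7.63 and 7.49 CPM in compressed KO cells. The KO libraries all lay between the WT control and WT compressed libraries. Interferon-stimulated genes, the antiviral set, had medians of 0.95 in WT and 0.55 in KO cells, with 27 of 37 interactions negative and 17 members parallel. At an unadjusted p under 0.05, 1 member was lower and 0 were higher, beside 2.26% and 2.53% of all genes. That member, the helicase relative DDX60, stood at 28.5 CPM in KO compressed replicate 2 against 6.42 and 12.6 CPM in the other compressed KO libraries and 14.6 and 9.45 CPM in KO controls. In WT cells DDX60 stood at 0.473, 3.22 and 1.10 CPM in controls and at 10.1, 10.5 and 6.46 CPM after compression. Its KO controls thus lay above every WT control. The median of the list was 0.16, 1.06 and 0.28 in the compressed KO libraries and was 0.21 in the KO response without replicate 2.

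**Figure D4:**
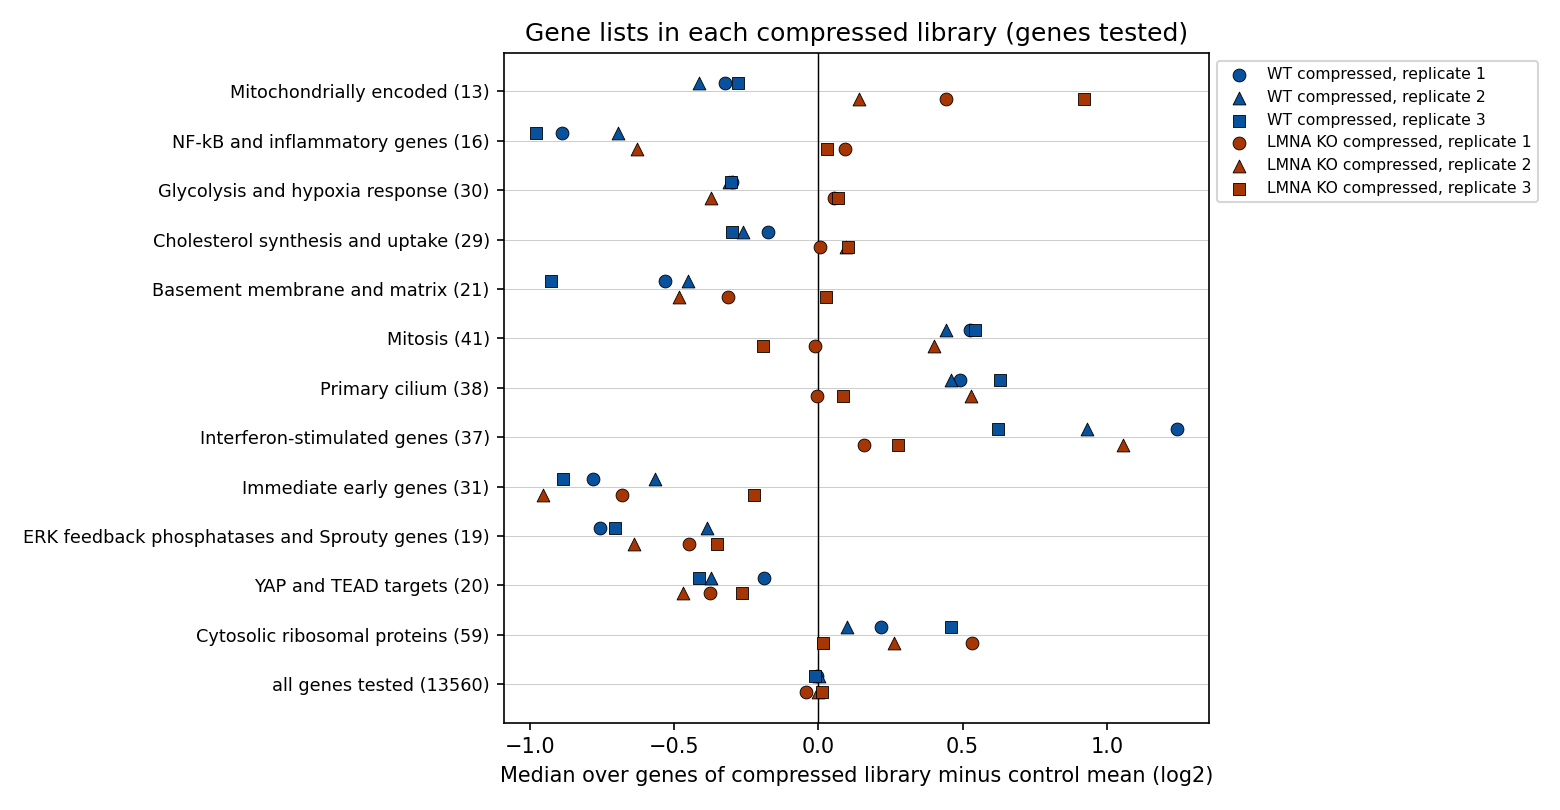
Median over the tested genes of a list of the difference between 1 compressed library and the mean of its genotype's controls on the log2 scale, for 3 WT and 3 LMNA KO compressed libraries; numbers in brackets are the genes tested. Triangles of the KO colour, replicate 2, lie near the WT points for NF-kB, glycolysis, matrix, mitosis, cilium and interferon genes. They lie on the opposite side of 0 from the WT points for mitochondrially encoded and cholesterol genes.

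The median response of NF-kB and inflammatory genes was -0.89 in WT and -0.11 in KO cells, and the interaction median was 0.94, with 14 of 16 positive, beside 51.3% of all genes, and 5 at an unadjusted p under 0.05, all higher, beside 2.53% of all genes. CSF2, the cytokine GM-CSF, stood at 87.0, 22.5 and 43.1 CPM in WT controls, at 5.38, 8.89 and 8.48 CPM in compressed WT cells, at 9.36 and 12.3 CPM in KO controls and at 29.7, 2.89 and 4.46 CPM in compressed KO cells. The KO libraries spread more widely than the WT compressed ones, and replicate 1 alone was above its controls. PTGS2, cyclooxygenase-2, had an interaction of 2.29 ± 0.87, which was 1.11 with the 2 libraries set aside, WT control replicate 1 standing at 4622 CPM against 477 and 1086 CPM in the others. The list's interaction median lay between 0.62 and 1.16 without each library in turn.

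Matrix and protease genes had mostly positive interactions. All tested genes with a WT response between -1 and -0.5 also had a smaller median in KO cells, -0.30 against -0.68. Of 21 basement membrane and matrix genes 18 had a positive interaction, with medians of -0.69, -0.11 and 0.35 and 3 at an unadjusted p under 0.05, all higher, beside 2.53% of all genes. The interaction median was 0.11 without KO compressed replicate 3 and 0.58 without WT compressed replicate 2. LOXL2, a collagen crosslinking enzyme, had responses of -1.15 ± 0.32 and 0.44 ± 0.36, and COL5A1, a fibrillar collagen chain, had responses of -0.65 ± 0.33 and 0.57 ± 0.39. The KO groups overlapped in both genes, and KO minus WT in the controls was -1.99 for LOXL2 and -2.94 for COL5A1. COL5A1 stood at 4.74 and 5.70 CPM in KO controls and at 7.91, 3.25 and 11.9 CPM in compressed KO cells, replicate 2 being below both controls. Pericellular proteases and their inhibitors had 14 of 18 positive interactions, with medians of -0.49, -0.03 and 0.24. Of the 18, 3 had an unadjusted p under 0.05, all higher, beside 2.53% of all genes. Their interaction median was 0.10 without KO compressed replicate 3 and 0.46 without replicate 2. TIMP1, an inhibitor of matrix metalloproteinases, stood at 171, 81.1 and 98.6 CPM in WT controls, at 49.6, 57.3 and 49.0 CPM in compressed WT cells, at 53.7 and 61.5 CPM in KO controls and at 122, 33.8 and 86.0 CPM in compressed KO cells. KO compressed replicates 1 and 3 were above the KO controls and replicate 2 was below them. With the 2 libraries set aside TIMP1 was called, with responses of -0.79 and 0.85 and an edgeR adjusted p of 0.0156. In Notch genes, 9 of 12 interactions were positive and 2 had an unadjusted p under 0.05, both higher, beside 2.53% of all genes. These were NOTCH1 and the ligand JAG2, the latter with responses of -1.35 ± 0.33 and -0.15 ± 0.36.

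Glycolysis and hypoxia genes had medians of -0.32 in WT and -0.01 in KO cells with 25 of 30 interactions positive, and cholesterol genes had medians of -0.30 and 0.04 with 25 of 29 positive. At an unadjusted p under 0.05 these lists had 2 higher and 1 lower, and 2 higher and 0 lower. Over all genes the shares were 2.53% higher and 2.26% lower. PFKFB3, which makes the activator of phosphofructokinase, stood at 723, 360 and 402 CPM in WT controls, at 181, 215 and 161 CPM in compressed WT cells, at 318 and 335 CPM in KO controls and at 374, 172 and 497 CPM in compressed KO cells. Again replicate 2 alone lay at the level of the compressed WT libraries. The responses were -1.41 ± 0.32 and 0.09 ± 0.36, and the interaction was 1.45 with the 2 libraries set aside (edgeR adjusted p = 0.0159). ALDOC, an aldolase, had responses of -0.65 ± 0.31 and 0.83 ± 0.35. LSS and ACLY, enzymes of sterol and acetyl-CoA synthesis, had interactions of 0.61 ± 0.27 and 0.49 ± 0.21. Without WT control replicate 1 the number of positive cholesterol genes was 19 of 29.

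Immediate early genes had medians of -0.77 and -0.60 with 13 of 31 parallel. An unadjusted p under 0.05 was reached by 3 of them, all higher, beside 2.53% of all genes. ERK feedback genes had medians of -0.67 and -0.65 with 8 of 19 parallel and 0 at an unadjusted p under 0.05, beside 4.79%. PHLDA1, induced downstream of growth factor receptors, was lower without overlap in both genotypes, at -1.73 ± 0.33 and -0.79 ± 0.36, and was in the damped class. With the 2 libraries set aside PHLDA1 was called, with responses of -1.76 and -0.42 and an edgeR adjusted p of 0.0321. YAP and TEAD targets had medians of -0.47 and -0.39, and FSTL1, a secreted glycoprotein of that list, had an interaction of 0.61 ± 0.27. Cytosolic ribosomal protein genes had medians of 0.26 and 0.31. The interaction medians were 0.33, 0.29, 0.05 and 0.05, the first being 0.12 without KO compressed replicate 3 and the second 0.17 without it, which does not show that the genotypes responded alike.

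Nuclear envelope and lamina genes had medians of -0.12, -0.15 and 0.03, with 15 of 29 positive. An unadjusted p under 0.05 was reached by 2, both higher, beside 2.53% of all genes. These were TMEM38A, a cation channel subunit of internal membranes, with responses of -2.12 ± 0.66 and 0.55 ± 0.65 at no more than 4.12 CPM, and TMEM201, an inner nuclear membrane protein, with responses of -0.95 ± 0.22 and -0.18 ± 0.25. TMEM201 stood at 21.1, 19.0 and 17.7 CPM in WT controls, at 12.6, 8.64 and 8.48 CPM in compressed WT cells, at 12.3 and 11.7 CPM in KO controls and at 10.8, 8.86 and 11.9 CPM in compressed KO cells. Its KO controls thus lay at the level of the compressed WT libraries. Mechanosensitive channel and calcium genes had 0 of 19 members at an unadjusted p under 0.05, beside 4.79% of all genes. Without KO compressed replicate 2 there were 4 higher and 2 lower, beside 8.36% and 8.43% of all genes. With the 2 libraries set aside TRPM7, a cation channel with a kinase domain, was called at -1.31 (edgeR adjusted p = 0.0214). Kidney epithelial markers had 6 positive and 6 negative interactions with a median of 0.04. Of the 12, 3 had an unadjusted p under 0.05, all higher, beside 2.53% of all genes. Of these, PAX2 and PAX8, transcription factors of the nephron lineage, had interactions of 1.09 ± 0.34 and 0.94 ± 0.36, both lower in compressed WT cells. The third, CDH16, had an interaction of 2.32 ± 1.00 at no more than 5.69 CPM, and was at 0 in WT compressed replicate 3.

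Amplified genes, with a larger response in KO cells, were 110 with a WT value above 0 and 142 with one below 0, and 15 of the 252 had an unadjusted p under 0.05 in the interaction, a share near the 4.79% of all genes. CYP4A11, a fatty acid hydroxylase, stood at 8.67, 6.91 and 4.34 CPM in WT controls, at 5.54, 5.25 and 8.07 CPM in compressed WT cells, at 13.0 and 12.4 CPM in KO controls and at 26.2, 26.7 and 28.8 CPM in compressed KO cells. The KO groups were far apart and their replicates close, while the WT groups overlapped, and the interaction was 1.17 ± 0.39. SAT1, a polyamine acetyltransferase, and the microtubule plus-end protein MAPRE3 had KO responses of 1.09 ± 0.43 and 1.04 ± 0.39. The WT response of SAT1 was -0.20 ± 0.39, with WT control replicate 1 at 70.8 CPM against 18.3 and 28.1 CPM in the others. With the 2 libraries set aside SAT1 had responses of 0.54 in WT and 1.11 in KO cells, and an interaction of 0.57. CLCN5, a chloride-proton exchanger of proximal tubule endosomes, stood at 2.86 and 2.66 CPM in KO controls and at 0.523, 1.49 and 0.743 CPM in compressed KO cells, against 2.02 to 3.13 CPM in the WT libraries. ERRFI1, a feedback inhibitor of the EGF receptor, had a KO response of -1.25 ± 0.37 and a WT response of -0.28 ± 0.33. Its interaction had an edgeR unadjusted p of 0.072. For ERRFI1, WT control replicate 1 stood at 29.0 CPM against 97.7 and 90.5 CPM in the others. With the 2 libraries set aside its responses were -1.29 in KO and -0.66 in WT cells. In each of these genes the KO groups did not overlap, KO compressed replicate 2 included.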

How the data were processed

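RNA sequencing of polyadenylated RNA from 11 libraries was used as deposited. The submitters' processing notes name HISAT2 (version 2.0.5), CASAVA, FastQC and the build CanFam3.1. The sources used here do not give the gene counter, its annotation or its use of strand, so reads of overlapping or antisense genes cannot be told apart. The table the authors deposited holds a raw count and an FPKM value for each gene and library; the FPKM the authors deposited served as an alternative only. Groups came from the sample titles. Symbols came from the table's gene name column (17931 genes) or its protein match (1758), and 6489 genes had none.

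The main test was edgeR 4.0.16 in R 4.3.3 (filterByExpr, TMM scaling, quasi-likelihood F-test over 4 groups, two-sided, Benjamini-Hochberg adjustment over all genes, threshold 0.05). CPM use the TMM-scaled library size, except that the sums, means and low-count tallies of the cell type markers use unscaled totals. Differences for single libraries used log2 CPM with a prior count of 2. SE are model-based. Alternatives were DESeq2 1.42.0, limma 3.58.1 (voom, and trend on FPKM), other scalings and filters, a robust fit, a replicate term, stricter classes and leaving out each library; the fits with 2 and 3 libraries set aside were chosen after seeing the data. The script was tested on simulated data.

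Members, 36 gene lists (992 of 1083 entries found) and comparisons were chosen with earlier results of these data known. Named genes are LMNA, the 5 smallest interaction p of each class and direction with a symbol and at least 2 CPM in the highest group, and the 3 smallest of each list; not all are reported here. The other genes named (CENPE, ASPM, and genes at class thresholds) fall outside that rule. The planned description of promoter motifs was not run, since no promoter sequences were used here.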

Additional observations from a re-analysis of the deposited data

How the results depend on the processing

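With other settings the number of genes called in the interaction was 0 under RLE scaling, library size alone, DESeq2, limma-voom, both filters, the robust fit and limma on log2(FPKM + 1) or log2(FPKM + 0.1), and between 607 and 845 genes had an unadjusted p under 0.05. Leaving out each library in turn gave 0 to 1 called, 236 to 2276 at an unadjusted p under 0.05, 245 to 471 opposite genes, 611 to 1349 damped, 198 to 499 amplified and 714 to 2020 parallel. With 2 libraries set aside there were 366 called, 3381 at an unadjusted p under 0.05 and 772 parallel genes, and with 3 set aside 360, 3200 and 701; these fits were chosen after seeing the data. Without a filter, so with more genes at low counts, there were 1264 opposite, 2241 damped, 1322 amplified and 1995 parallel genes. A filter of 1 CPM in 3 libraries, which tests fewer genes, gave 163 amplified genes, and stricter class thresholds gave 61 opposite genes. The interaction of LMNA changed sign: it ran from -0.37 to 0.082 without each library and was 0.22 and 0.17 with 2 and 3 libraries set aside. Between libraries of the same genotype and replicate number, deviations from the group mean correlated at -0.137 to 0.201 over 5 pairs. Deviations within groups of 2 or 3 libraries are tied to each other, so these values cannot decide whether replicate numbers pair the libraries. The fit with a replicate block gave 0 called and 424 genes at an unadjusted p under 0.05. The causes of these differences were not tested where not stated.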
